A study of Homo sapiens with 4 samples.

Results

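Interferon-stimulated genes are the genes that a cell transcribes when an interferon binds its receptor, and many of their products block viral replication. A list of 38 such genes was followed in the human pre-B leukemia line Nalm-6, among 17721 genes that could be named on the array. Each probe was assigned by its transcript accession. Of the 38 genes, 37 were matched to at least 1 probe, 35 were well above background on at least 1 array and 34 on all 4. *IFI27* was not matched, and *RSAD2* and *EPSTI1* were not well above background on any array. The cells were under no oxidative stress, and their total RNA was read on Agilent arrays of a single color. There was 1 array for wild-type cells, 1 for Arp5 KO cells and 1 for Arp8 KO cells, in which the gene for Arp5 or Arp8, subunits of the INO80 chromatin remodeling complex, had been disrupted by homologous recombination. The remaining array is labelled Arp8 overexpression, and the design text places a Tet-Off construct for Arp8 in the Arp8-knockout line. The labels do not say whether tetracycline was present or whether a line is a single clone. With 1 array per genotype no difference has a replicate check and no p-value is given.

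The labels were examined first. *ACTR5*, the gene for Arp5, gave 1909 units on the wild-type array, 65.3 on the Arp5 KO array, 1849 on the Arp8 KO array and 2088 on the one labelled Arp8 overexpression. It was low only on the Arp5 KO array, with a log2 difference of -4.85 from wild-type cells. *ACTR8*, the gene for Arp8, has a pair of probes. One gave 1092 units on the wild-type array, 993 on the Arp5 KO array, 785 on the Arp8 KO array and 679 on the one labelled Arp8 overexpression, and the other gave 2149, 2233, 1654 and 1857 units in the same order. The median log2 difference of *ACTR8* from wild-type cells was -0.44 under the Arp8 KO label and -0.47 under the overexpression label. This gene was therefore not higher on the array that carries the overexpression label, and its values do not distinguish an exchange of the 2 Arp8 arrays from correct labels. *INO80*, the gene for the ATPase of the complex, was higher than in wild-type cells by 0.88 for Arp5 KO, 1.05 for Arp8 KO and 0.27 for the array labelled Arp8 overexpression, and by 0.78 in Arp8 KO relative to it. Every direction below that names either Arp8 array rests on its label. All 12 markers of pre-B cells examined, among them *CD79A* and *PAX5*, were well above background on all 4 arrays. Their levels differed between arrays too, with *CD22* at -0.74, -1.78 and -0.66 and *CD79A* at -0.56, -0.13 and 0.50 against wild-type cells, and *CD22* at -1.12 between the Arp8 arrays.

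Interferons of type I signal through the receptor chains IFNAR1 and IFNAR2, which activate the kinases JAK1 and TYK2. These phosphorylate STAT proteins, STAT2 among them, which join IRF9 and bind a short motif, the interferon-stimulated response element, in the promoters of the stimulated genes. Many of these genes are also transcribed at a low basal level in cells, B-lineage cells included, that have met no virus.

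Few of the 38 genes differed beyond 2-fold between arrays, and more of them were below their wild-type level in the KO cells than above it. A gene's log2 difference is the median of the differences of its probes, each array being scaled to the 75th percentile of its spots, and 2-fold is the threshold the study used. In Arp5 KO cells 0 of 35 members were higher than in wild-type cells beyond 2-fold and 1 was lower, against 1.14% and 1.38% of the 13721 named genes with a value. In Arp8 KO cells 0 of 35 were higher and 3 were lower, against 1.74% and 1.89% of 13596 genes. On the array labelled Arp8 overexpression, 1 was higher and 1 was lower, against 1.87% and 1.9% of 13663 genes. Between the Arp8 arrays, which leaves the wild-type array out, 0 of 34 members were higher in Arp8 KO cells and 1 was lower, against 0.725% and 1.04% of 13512 genes. The members beyond 2-fold were *OASL*, *MX1*, *XAF1* and *USP18*. *OASL*, the only member lower beyond 2-fold on the array labelled Arp8 overexpression or in Arp5 KO cells, was well above background on the wild-type array alone, so its values are bounds. With all 4 arrays required to be well above background, 0, 2 and 0 of 34 members were lower than in wild-type cells, against 0.948%, 1.42% and 1.47% of genes. With 35 members, 1 gene amounts to a larger share than any of these percentages.

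For Arp5 KO, the median log2 difference of the members from wild-type cells was -0.21, where that of all named genes was 0.02. It was -0.19 in Arp8 KO cells, again beside 0.02 for all genes. On the array labelled Arp8 overexpression the members' median was 0.00 and that of all genes 0.03. These 3 values share the wild-type array. Between the Arp8 arrays, as KO over labelled overexpression, the medians were -0.18 for the members and -0.00 for all genes. Of the 35 members, 27 (77.1%) in Arp5 KO cells were below their wild-type level, 24 (68.6%) in Arp8 KO and 17 (48.6%) on the array labelled Arp8 overexpression. Of all named genes, the shares below the wild-type level were 46.1%, 46.2% and 45.5%. Between the Arp8 arrays 22 of 34 members (64.7%) were lower in Arp8 KO, against 50.3% of all named genes.

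**Figure D1:**
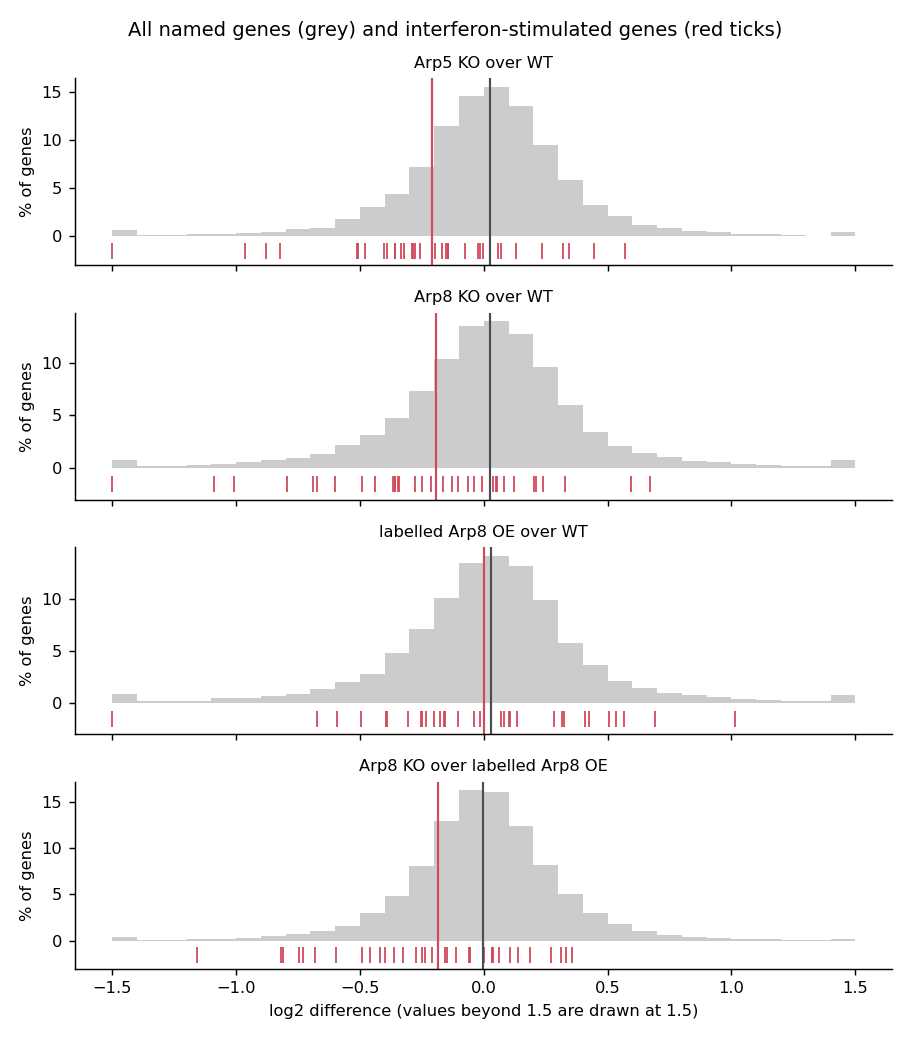
Distribution of log2 differences for the 4 comparisons, in percent of all named genes per bin of 0.1 (grey bars), with each interferon-stimulated gene as a red tick and both medians as vertical lines (red for the members, dark for all genes). The members' medians lie at -0.21, -0.19, 0.00 and -0.18 from top to bottom.

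*MX1* and *MX2* encode related dynamin-like GTPases, the MX proteins, which restrict incoming viruses. *MX1* had a signal of 2265 units on the wild-type array, 1142 on the Arp5 KO array, 1079 on the Arp8 KO array and 2414 on the one labelled Arp8 overexpression. It was thus about as bright on the array labelled Arp8 overexpression as in wild-type cells and dimmer in both KO lines. Its log2 differences from wild-type cells were -0.97 for Arp5 KO, -1.09 for Arp8 KO and 0.07 for the array labelled Arp8 overexpression, and in Arp8 KO it was -1.16 relative to the labelled overexpression array. One probe of *MX2* gave 2381 units on the wild-type array, 1328 on the Arp5 KO array, 1581 on the Arp8 KO array and 2794 on the one labelled Arp8 overexpression, and the other gave 808, 414, 489 and 858 units in the same order. Both probes of *MX2* were lower in both KO lines, and the gene's log2 differences were -0.88 for Arp5 KO, -0.67 for Arp8 KO and 0.14 for the array labelled Arp8 overexpression. *ISG20*, which encodes an exonuclease for single-stranded RNA, had 2169 units on the wild-type array, 1208 on the Arp5 KO array, 1267 on the Arp8 KO array and 2247 on the one labelled Arp8 overexpression. Its log2 differences were -0.82 for Arp5 KO, -0.79 for Arp8 KO and 0.03 for the array labelled Arp8 overexpression, and -0.82 between the Arp8 arrays. The direction on the array labelled Arp8 overexpression was not settled for *ISG20*, since it ran from -0.04 to 0.12 over the alternatives in the processing.

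For each gene the 2 KO arrays were then set against the other 2, a grouping chosen after the values had been seen. Of the 34 members well above background on all arrays, 8 (23.5%) were lower on both KO arrays than on both others, and 0 were higher on both. Of the 12969 named genes well above background on all arrays, 15.3% were lower in this way and 17.3% were higher. The 8 members were *MX1*, *MX2*, *ISG20*, *IFIT2*, *SP110*, *IFI6*, *EIF2AK2* and *ISG15*. This grouping rests on the Arp8 labels, and with these exchanged none of the 8 could be lower on both KO arrays, by construction. *HERC5*, *IFIH1*, *IFIT1*, *IRF9* and *SAMD9* would then be lower on both, and *IRF7*, *HERC6*, *IFI44*, *PARP9* and *PARP14* higher. No share of all genes is given for that exchange, so whether these members differ from all genes in this respect was not tested. The gap between the nearest KO and other arrays was 0.97 for *MX1*, 0.79 for *ISG20*, 0.67 for *MX2* and 0.40 for *IFIT2*. It was 0.25 for *SP110* and at most 0.06 for *IFI6*, *EIF2AK2* and *ISG15*, for which the separation is slight. A gap of at least 0.5 held for 3 members in the lower direction and 0 in the higher, against 0.486% and 0.339% of all genes. The differences of Arp5 KO from wild type and of Arp8 KO from the array labelled Arp8 overexpression share no array, and their Pearson r was 0.119 over the 34 members and 0.157 over the 12969 genes. Without *MX1*, *MX2* and *ISG20*, left out for their values, r was -0.42 over the other 31 members. These genes are low in both comparisons, so that leaving them out lowers r by itself. No r over all genes with a like omission is given. *MX1* and *MX2* lie next to each other on chromosome 21, so these 3 genes come from fewer places in the genome than their number says.

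**Figure D2:**
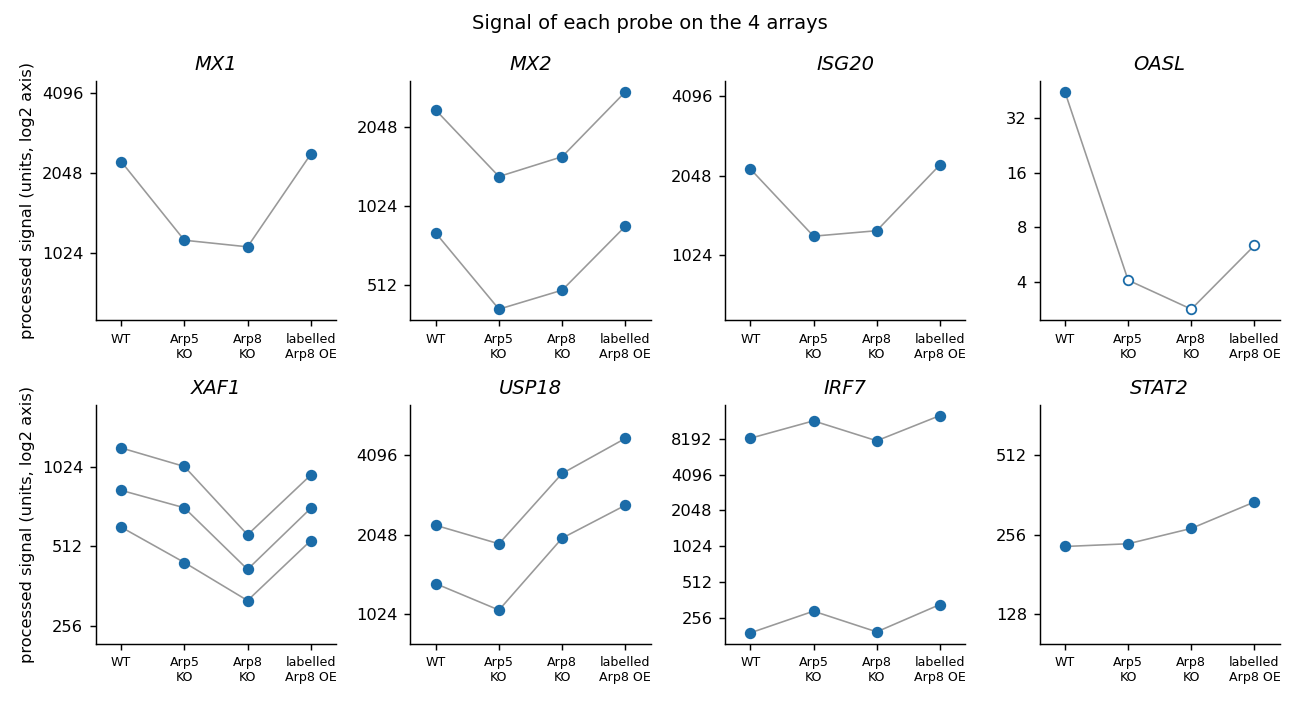
Processed signal, in units on a log2 axis, of every probe of 8 interferon-stimulated genes on the 4 arrays (WT, wild type; OE, overexpression). Lines join the arrays for 1 probe, and open circles mark signals not well above background. *MX1*, *MX2* and *ISG20* are lower on both KO arrays, *XAF1* on the Arp8 KO array, and *OASL* is well above background in wild-type cells only.

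The promoters of members were searched for the core of the interferon-stimulated response element, taken as GAAA followed by any 2 bases and again GAAA, on either strand. The windows run from 250 bases before to 50 after each RefSeq start on build GRCh38.p14, and a match is a match of letters, not a shown binding site. Windows were held for 30 of the 38 members, and 22 of these (73.3%) contained the motif, against 4.38% of 27305 genes in the same table, or 3.57% of its 35116 windows. Of the genes that separated the KO arrays, *ISG20* has the motif at -69 from its start, and *MX1* has it at 12 after one start and at -196 from another, while the window of a further start has none. *IFI6*, with the motif at -156, -115 and -93, and *EIF2AK2*, with it at -6, were also lower on both KO arrays. *SP110*, likewise lower on both, has none in its windows. *ISG15* holds 2 overlapping matches, at -113 and -107. *XAF1* has none in its windows. These promoters are shown because they belong to the members whose values separate the arrays, with *ISG15* as a member that differed little. Each is the plus strand, 5′ to 3′, and capitals mark the motif, or its reverse complement where it lies on the other strand. They are *ISG20* at chr15:88638766-88639065, *MX1* at chr21:41420308-41420607 and at chr21:41431800-41432099, *ISG15* at chr1:1013247-1013546, and *XAF1* at chr17:6755796-6756095.
ISG20: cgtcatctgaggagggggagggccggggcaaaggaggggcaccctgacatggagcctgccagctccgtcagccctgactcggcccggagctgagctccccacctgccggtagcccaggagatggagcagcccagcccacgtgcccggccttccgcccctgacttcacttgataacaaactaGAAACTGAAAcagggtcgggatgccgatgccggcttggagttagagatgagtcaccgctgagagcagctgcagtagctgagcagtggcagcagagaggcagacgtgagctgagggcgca
MX1, first start: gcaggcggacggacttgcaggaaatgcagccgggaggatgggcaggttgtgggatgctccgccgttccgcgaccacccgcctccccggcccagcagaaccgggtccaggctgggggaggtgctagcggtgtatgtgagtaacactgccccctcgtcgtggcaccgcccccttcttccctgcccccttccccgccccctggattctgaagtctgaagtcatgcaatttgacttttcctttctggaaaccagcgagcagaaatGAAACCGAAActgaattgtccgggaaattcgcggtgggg
MX1, last start: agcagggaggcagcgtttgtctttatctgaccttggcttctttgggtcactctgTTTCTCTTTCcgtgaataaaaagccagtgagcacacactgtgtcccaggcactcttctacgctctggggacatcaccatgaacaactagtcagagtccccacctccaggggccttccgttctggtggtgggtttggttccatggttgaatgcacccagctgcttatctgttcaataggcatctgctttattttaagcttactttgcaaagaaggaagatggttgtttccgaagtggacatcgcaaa
ISG15: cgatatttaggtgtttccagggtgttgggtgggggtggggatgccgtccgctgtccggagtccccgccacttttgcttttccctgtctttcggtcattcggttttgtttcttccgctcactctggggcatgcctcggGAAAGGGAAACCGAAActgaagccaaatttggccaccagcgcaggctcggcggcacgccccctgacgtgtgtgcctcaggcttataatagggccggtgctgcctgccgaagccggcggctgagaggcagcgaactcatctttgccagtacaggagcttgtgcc
XAF1: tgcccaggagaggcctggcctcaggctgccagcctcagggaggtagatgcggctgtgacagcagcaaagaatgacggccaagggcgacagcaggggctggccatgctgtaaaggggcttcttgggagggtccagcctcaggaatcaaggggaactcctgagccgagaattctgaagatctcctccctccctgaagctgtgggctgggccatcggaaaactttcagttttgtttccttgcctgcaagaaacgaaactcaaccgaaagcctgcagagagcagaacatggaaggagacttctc

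Members with and without the motif overlapped in every comparison. Of the 22 with the motif, 19 had a value, and their median log2 difference from wild-type cells was -0.28 for Arp5 KO, -0.21 for Arp8 KO and -0.16 for the array labelled Arp8 overexpression. The 8 members whose windows lacked it were *STAT2*, *IRF9*, *UBE2L6*, *HERC6*, *OAS1*, *IFI35*, *XAF1* and *SP110*, with medians of 0.03, 0.01 and 0.16. The order was the other way round between the Arp8 arrays, with medians of -0.06 for members with the motif and -0.24 for those without. In Arp5 KO cells, values ran from -0.97 to 0.44 with the motif and from -0.33 to 0.32 without it. Promoters of *IRF7*, *USP18*, *OAS2*, *OASL*, *IFIT2*, *MX2*, *IFITM2* and *TRIM22* were not in the table.

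**Figure D3:**
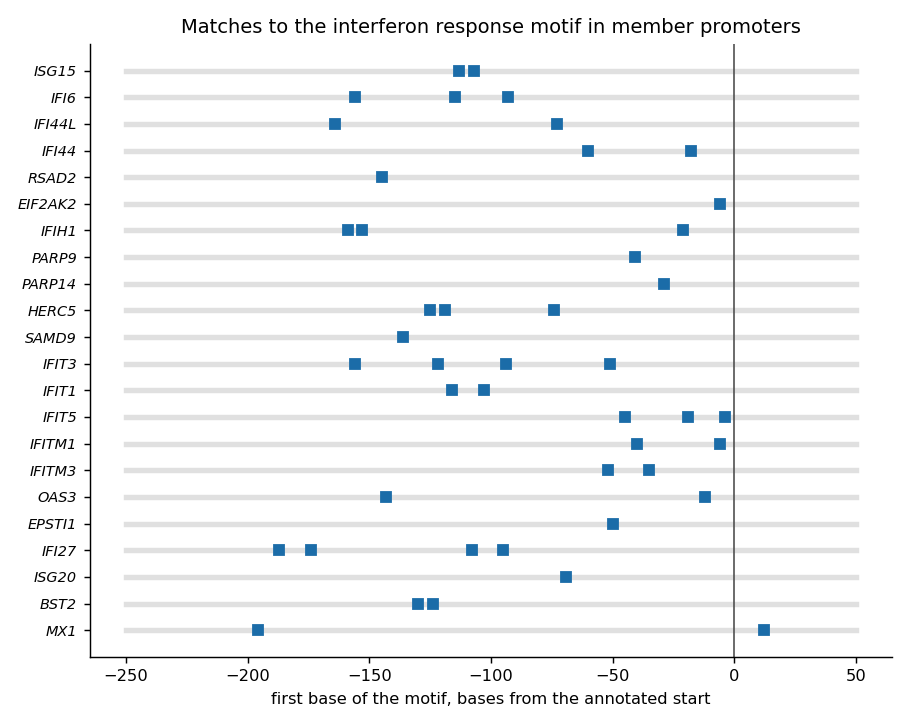
Position of each motif match, in bases from the annotated start, in the promoter windows (grey bars) of the 22 members that hold one. Windows of all starts of a gene are drawn on 1 line, so that letters shared by overlapping windows appear more than once, and the match of *ISG20* is at -69.

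Among the members that encode transcription factors, *IRF7* and *STAT2* were highest on the array labelled Arp8 overexpression. *STAT2*, the interferon-specific STAT, had 231 units on the wild-type array, 236 on the Arp5 KO array, 270.2 on the Arp8 KO array and 340.1 on the one labelled Arp8 overexpression, with log2 differences of 0.06, 0.21 and 0.54 for the last 3 arrays. *IRF9*, its DNA-binding partner, had 613 units on the wild-type array, 546 on the Arp5 KO array, 657 on the Arp8 KO array and 579 on the one labelled Arp8 overexpression. The differences of *IRF9* were -0.15, 0.08 and -0.11, and it was the least variable of these 3 genes. *IRF7*, which drives the transcription of interferon genes, is measured by 2 probes. One gave 8297 units on the wild-type array, 11633 on the Arp5 KO array, 7901 on the Arp8 KO array and 12879.7 on the one labelled Arp8 overexpression, and the other gave 190.1, 289.6, 194 and 329 units in the same order. *IRF7* was thus higher in Arp5 KO cells, at 0.57, and on the array labelled Arp8 overexpression, at 0.69, while Arp8 KO cells were near the wild-type level at -0.04. Between the Arp8 arrays it was -0.73.

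ISG15 is a ubiquitin-like protein that UBE2L6 and HERC5 attach to other proteins and that USP18 removes. *ISG15* itself had 15492 units on the wild-type array, 13563 on the Arp5 KO array, 15599 on the Arp8 KO array and 16935 on the one labelled Arp8 overexpression, with log2 differences of -0.17, -0.01 and 0.11. These are close to 0. The sign in Arp8 KO cells turned to 0.01 without scaling and to 0.04 with normexp background correction followed by quantile normalization. *USP18*, whose product also blocks signaling at IFNAR2, covered the widest range among the 34 members, 1.27 on the log2 scale. Its probes gave 1337 units on the wild-type array, 1063 on the Arp5 KO array, 1988 on the Arp8 KO array and 2645 on the one labelled Arp8 overexpression, and 2222, 1892, 3489 and 4733 units in the same order. It was lowest in Arp5 KO cells and highest on the array labelled Arp8 overexpression, with log2 differences of -0.26, 0.59 and 1.01. The last value is 2.02-fold and lies at the threshold, since it fell short of 2-fold under 4 of the alternatives, with a lowest value of 0.93. *HERC5*, the main ISG15 ligase, was lower on all 3 arrays, at -0.51, -0.28 and -0.59. *HERC6*, its neighbor on chromosome 4, moved apart from it, at 0.23, -0.06 and 0.43, and *UBE2L6* gave -0.00, -0.16 and -0.01.

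Of the 6 members that sense or degrade foreign RNA, 5 were lower in Arp5 KO than in wild-type cells, *OAS1* being the exception, 3 in Arp8 KO and 4 on the array labelled Arp8 overexpression. Among all named genes the shares were 46.1%, 46.2% and 45.5%. *OASL*, which encodes an OAS-like protein without synthetase activity, is measured by 1 spot per array. It had 44.7 units on the wild-type array, 4.09 on the Arp5 KO array, 2.83 on the Arp8 KO array and 6.36 on the one labelled Arp8 overexpression, and only the wild-type signal was well above background. With each dim array set to its lowest signal that counted as well above background, *OASL* was at least 6.38-fold lower than in wild-type cells for Arp5 KO, at least 4.79-fold lower for Arp8 KO and at least 5.12-fold lower for the array labelled Arp8 overexpression. All 3 bounds rest on the same wild-type spot. *OAS1*, *OAS2* and *OAS3* lie side by side on chromosome 12 and encode enzymes that activate RNase L. Their log2 differences from wild-type cells were 0.07, 0.67 and 0.32 for *OAS1*, -0.15, -0.69 and -0.20 for *OAS2* and -0.08, 0.12 and 0.28 for *OAS3*, so that the signs were split on both Arp8 arrays. One *OAS2* probe gave 306, 295, 211 and 284 units on the wild-type, Arp5 KO, Arp8 KO and labelled overexpression arrays, and *OAS1* gave 448, 463, 722 and 567 units in the same order. Both *OAS2* probes were lowest in Arp8 KO cells, at -0.56 and -0.82. *EIF2AK2*, the gene for the kinase PKR, was lower on all 3 arrays, at -0.36, -0.37 and -0.31. *IFIH1*, the gene for the RNA sensor MDA5, was at -0.48, 0.04 and -0.23, lowest in Arp5 KO cells.

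The IFIT genes encode proteins that bind viral RNA ends and hinder translation. All 4 were lower in Arp5 KO than in wild-type cells, as were 46.1% of all named genes. Their log2 differences were -0.40 for *IFIT1*, -0.51 for *IFIT2*, -0.36 for *IFIT3* and -0.15 for *IFIT5*. The values in Arp8 KO cells were -0.13, -0.44, 0.05 and -0.19, and that of *IFIT3* became -0.02 with the percentile taken over spots well above background. *IFIT3* had 1058 units on the wild-type array, 813 on the Arp5 KO array, 1109 on the Arp8 KO array and 1345 on the one labelled Arp8 overexpression, and was highest on the last of these. The median over the 4 genes was -0.38 for Arp5 KO, -0.16 for Arp8 KO and -0.10 for the array labelled Arp8 overexpression, where *IFIT2* went above 0 under some alternatives, to 0.01 with normexp.

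The next members act at membranes. The IFITM proteins hinder the fusion of viruses with cell membranes. *IFITM2* had 21532 units on the wild-type array, 17394 on the Arp5 KO array, 17002 on the Arp8 KO array and 16655 on the one labelled Arp8 overexpression, and *IFITM3* had 12752, 10035, 10059 and 9884 units in the same order. Their log2 differences were -0.29, -0.36 and -0.39 for *IFITM2* and -0.32, -0.36 and -0.39 for *IFITM3*. These are near-identical genes that lie on either side of *IFITM1*, and binding of one transcript to both probes cannot be told apart from a shared difference here. *IFITM1* had 94.5, 91.6, 75.5 and 60.2 units, and was lowest on the array labelled Arp8 overexpression, with a difference of -0.67, after -0.02 and -0.34 in the KO cells. *BST2*, the gene for tetherin, which holds budding viruses at the cell surface, was at -0.29, 0.20 and 0.41, lower in Arp5 KO cells only and thus opposite to the IFITM genes on both Arp8 arrays.

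The IFI genes differed among themselves. *IFI44* had 993 units on the wild-type array, 1242 on the Arp5 KO array, 664 on the Arp8 KO array and 1069 on the one labelled Arp8 overexpression, with log2 differences of 0.34, -0.60 and 0.08, so that it was highest in Arp5 KO and lowest in Arp8 KO cells. *IFI44L*, next to it on chromosome 1, had only 13.4, 17.9, 9.63 and 9.66 units on the same arrays, and signals under 50 units carried a median technical SD of 0.44 in the Arp5 KO comparison. *IFI35* was higher on all 3 arrays than in wild-type cells, at 0.32, 0.33 and 0.57. *IFI6*, which encodes a small protein that protects from cell death, was lower on all 3, at -0.28, -0.21 and -0.16.

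*XAF1*, which encodes a partner and inhibitor of the apoptosis inhibitor XIAP, was lower in Arp8 KO cells on each of its 3 probes. One probe had 833 units on the wild-type array, 715 on the Arp5 KO array, 419 on the Arp8 KO array and 712 on the one labelled Arp8 overexpression. The others had 1204, 1025, 566 and 951 units, and 605, 444, 319 and 538 units, in the same order. The Arp8 KO array is the lowest for each probe and the other arrays lie closer together. The log2 differences of the gene were -0.21 for Arp5 KO, -1.01 for Arp8 KO and -0.25 for the array labelled Arp8 overexpression. In Arp8 KO relative to the labelled overexpression array it was -0.75. The fold of 2.01 in Arp8 KO cells lies at the threshold, and the log2 difference was -0.99 without scaling and -0.96 with normexp. *SP110*, a nuclear body protein gene, was at -0.33, -0.25 and 0.00, and *TRIM22*, which encodes an antiviral ubiquitin ligase, at -0.39, 0.24 and 0.10. *PARP9* was at 0.13, 0.05 and 0.51 and *PARP14* at -0.02, -0.35 and 0.00, both genes of ADP-ribosylation. *SAMD9*, a gene of an antiviral and growth-restricting protein, was at -0.20, -0.10 and -0.18, but its 4 probes disagree. Against wild-type cells, in Arp8 KO, they ran from -0.84 to 0.00.

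**Figure D4:**
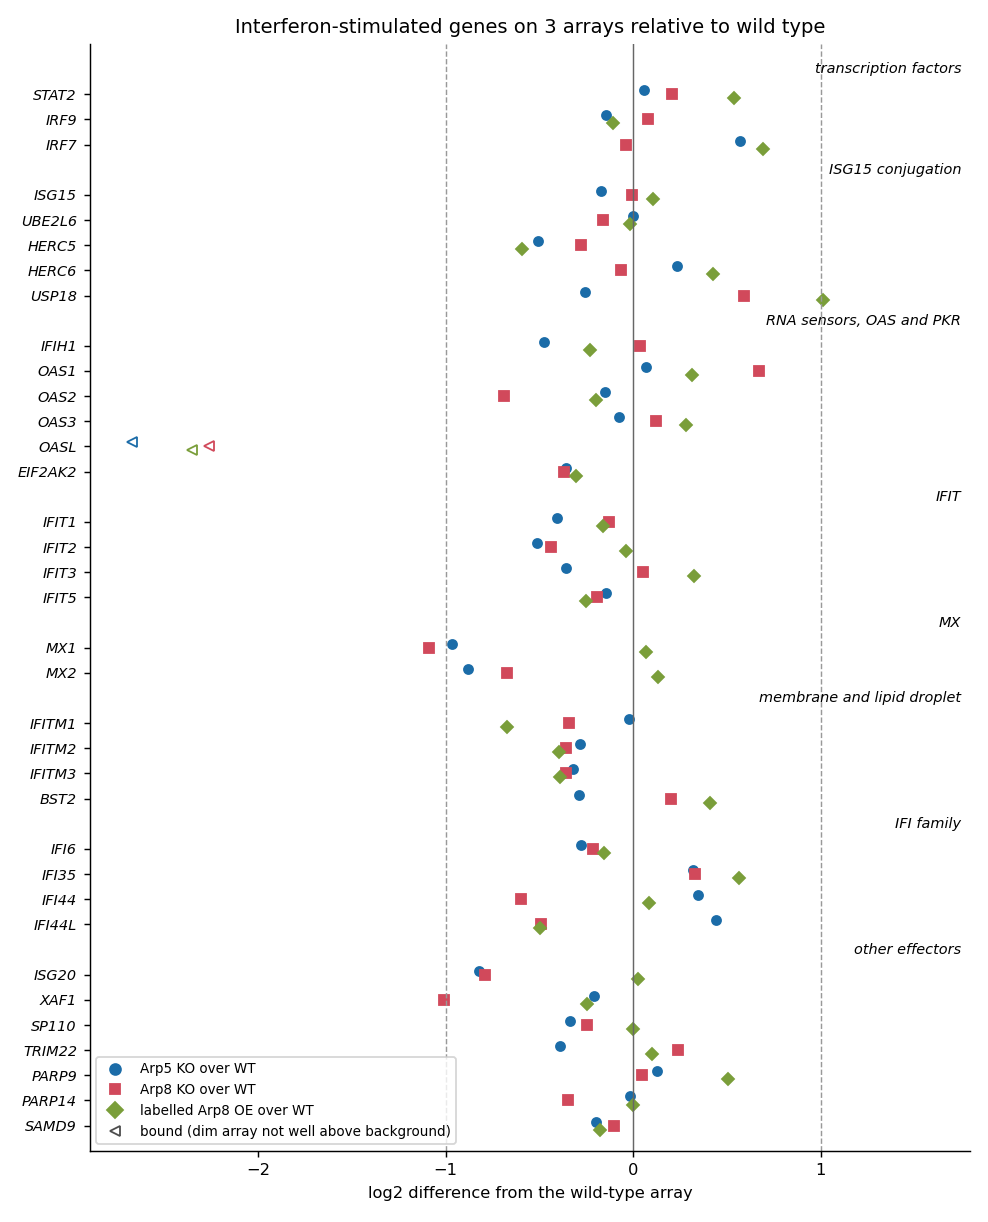
Log2 difference from the wild-type array for the 35 interferon-stimulated genes well above background on at least 1 array, grouped by role. Circles are Arp5 KO, squares Arp8 KO and diamonds the array labelled Arp8 overexpression (OE), open triangles are bounds, and dashed lines mark 2-fold. All 4 IFIT genes lie to the left of 0 in Arp5 KO cells.

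The members varied more between arrays than most genes. Over the 34 members well above background on all arrays, the median range from the lowest to the highest array was 0.55 on the log2 scale, against 0.36 for the 12969 genes. A range under 0.5 was found for 13 of 34 members and for 69.7% of genes. A range of 1 or more was found for 4 members, *MX1*, *MX2*, *XAF1* and *USP18*, and for 7.34% of genes. The highest array was the labelled overexpression array for 14 members, wild type for 13, Arp8 KO for 4 and Arp5 KO for 3, and for 27%, 23.9%, 25.7% and 23.3% of all genes. The lowest was Arp5 KO for 15, Arp8 KO for 9, the labelled overexpression array for 6 and wild type for 4, and for 22.5%, 23.1%, 22.5% and 31.9% of all genes. Different probes of 1 member mostly ran together. Of 44 pairs of a member and a comparison with at least 2 probes, 38 had all probes on 1 side of 0, the median spread was 0.12, and a spread of 0.5 or more was found only for *SAMD9*.

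Neighboring members did not always move together. *MX1* and *MX2* had the same sign on every array, with values furthest apart in Arp8 KO cells, at -1.09 and -0.67. *IFIT1* and *IFIT5* are neighbors too, and so are *IFIT2* and *IFIT3*, which were at -0.04 and 0.32 on the array labelled Arp8 overexpression. In Arp5 KO cells *HERC5* was at -0.51 and *HERC6* at 0.23. On the Arp8 KO array *OAS1* and *OAS2* lay on opposite sides of 0, and *OAS3* lies between them.

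Transcripts of the interferons themselves were barely measured. Of 21 ligand genes listed, 16 were matched, and 13 of these, *IFNB1* and *IFNG* included, were not well above background on any array. *IFNA4* had 37.9, 36.8, 34.9 and 34.0 units on the wild-type, Arp5 KO, Arp8 KO and labelled overexpression arrays, and *IFNL2* had 50.5, 59.8, 58.1 and 62.6 units. Neither was beyond 2-fold in any of the 4 comparisons, where 0.725% to 1.9% of all named genes were, per direction. *IFNL1*, well above background on some arrays only, has a bound under 2-fold in 3 of them, which does not show how far it differed.

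All 11 genes listed for receptors, kinases and STATs were well above background on all arrays, and 0 were beyond 2-fold in any comparison. Of all named genes, 0.725% to 1.9% were beyond 2-fold per direction and comparison, and for 11 genes a count of 0 is near these shares. *IFNAR1* had log2 differences from wild-type cells of -0.19, -0.13 and 0.01, and *IFNAR2* of 0.48, 0.59 and 0.45, higher on all 3 arrays. The kinase genes gave -0.04, -0.19 and -0.06 for *JAK1* and -0.01, 0.11 and 0.24 for *TYK2*, neither far from the wild-type level. *IFNLR1*, the receptor chain for lambda interferons, was lower in both KO lines, at -0.50 and -0.34, and higher on the array labelled Arp8 overexpression, at 0.55. One of its 2 probes had 691, 508, 496 and 1188 units on the 4 arrays in the order used above. The interferon gamma receptor genes gave 0.28, 0.48 and 0.22 for *IFNGR1* and -0.52, -0.19 and 0.37 for *IFNGR2*.

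Of 20 genes listed as nucleic acid sensors and adaptors, 15 had a value. Relative to wild-type cells, 1 was lower beyond 2-fold in Arp5 KO cells and 1 was higher on the array labelled Arp8 overexpression, where the shares of all genes were 1.38% and 1.87%. The medians were 0.08 for Arp5 KO, 0.16 for Arp8 KO and 0.13 for that array, beside 0.02, 0.02 and 0.03 for all genes. *IRF8*, a transcription factor of the B-cell and myeloid lineages, had 80.8 units on the wild-type array, 33.6 on the Arp5 KO array, 44.3 on the Arp8 KO array and 82.9 on the one labelled Arp8 overexpression. It was lower on both KO arrays than on both others, with differences of -1.24, -0.88 and 0.01, and -0.90 between the Arp8 arrays. The *IRF8* signals on the KO arrays were under 50 units, where the median technical SD was 0.44 for Arp5 KO and 0.46 for Arp8 KO. *STING1*, the adaptor of cytosolic DNA sensing, had 282 units on the wild-type array, 481 on the Arp5 KO array, 561 on the Arp8 KO array and 698 on the one labelled Arp8 overexpression. It was higher on all 3 arrays than in wild-type cells, with differences of 0.79, 0.97 and 1.28. *CGAS*, the sensor that activates STING, was at 0.29, 0.76 and 0.25. *TLR9*, a receptor for unmethylated DNA in B cells, was lower in Arp5 KO cells at -0.72 and higher on the array labelled Arp8 overexpression at 0.60.

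A further 38 interferon-stimulated genes outside the list were examined, of which 37 had a value against wild-type cells. In Arp5 KO cells 0 were counted beyond 2-fold in either direction, with bounds under 2-fold for *SLFN5* and *TNFSF10*. Of all genes, 1.14% were higher and 1.38% lower beyond 2-fold in that comparison. In Arp8 KO cells 1 was higher, the bound of *SLFN5*, and 1 was lower, *SAMHD1*, against 1.74% and 1.89% of all genes. On the array labelled Arp8 overexpression 1 was lower, again *SAMHD1*, against 1.9%. The values of *SLFN5* on that array and of *TNFSF10* on both Arp8 arrays are bounds under 2-fold too. Their medians were -0.07, -0.13 and 0.08, and -0.14 between the Arp8 arrays. *SAMHD1*, which encodes an enzyme that depletes nucleotides for reverse transcription, had 61.6 units on the wild-type array, 38.6 on the Arp5 KO array, 29.8 on the Arp8 KO array and 24.1 on the one labelled Arp8 overexpression, and its differences were -0.65, -1.06 and -1.38. The *SAMHD1* signals on the last 3 arrays were under 50 units, where the median technical SD against wild-type cells was 0.44 to 0.46. *TRIM14* was lower on all 3 arrays, at -0.52, -0.85 and -0.86, and *TDRD7* was lower on both Arp8 arrays, at -0.90 and -0.88. *LAMP3*, with no signal over 27.4 units, was at -0.03, 0.64 and 0.99.

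Of 12 negative regulators of the pathway, 0 were counted beyond 2-fold in any comparison. The shares of all named genes were 0.725% to 1.9% per direction and comparison, and for 12 genes a count of 0 is near them. For *SOCS3* the values of both Arp8 arrays against wild-type cells are bounds under 2-fold, which do not show how far it differed. *SOCS1*, an inhibitor of the JAK kinases, was lower in both KO lines, at -0.80 and -0.55, and at -0.25 on the array labelled Arp8 overexpression. *IRF2*, which competes with activating IRF proteins, was lower on all 3 arrays, at -0.79, -0.73 and -0.65. The phosphatase gene *PTPN6* was at 0.71, 0.13 and 0.67, nearest its wild-type level in Arp8 KO cells, and *PTPN1* was at -0.12, -0.37 and 0.11. The medians of the list were -0.05, -0.12 and -0.09 against wild-type cells.

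**Figure D5:**
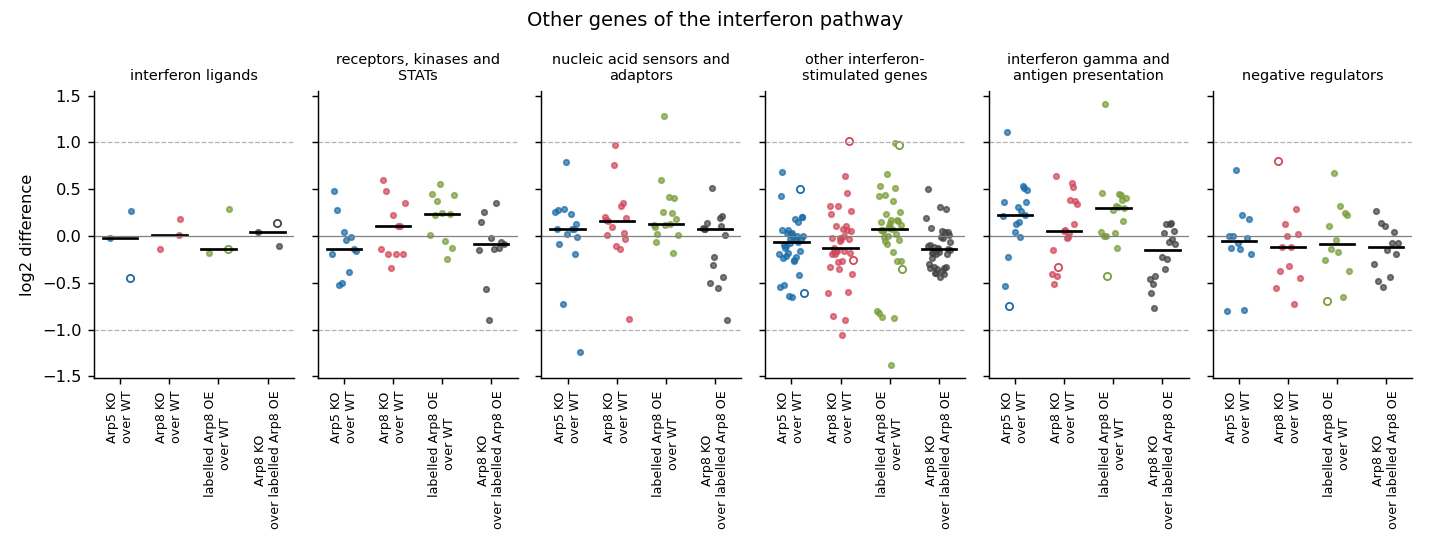
Log2 difference of each gene of 6 lists of the interferon pathway in the 4 comparisons (OE, overexpression, as labelled). Dots are genes, open dots are bounds, black bars are medians and dashed lines mark 2-fold. Against the wild-type array, 1 sensor gene lies below the lower line in Arp5 KO cells and 1 above the upper line on the array labelled Arp8 overexpression.

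Markers of other cell types differed between the arrays. Of 6 myeloid markers, 5 were well above background on all arrays, and *MPO*, the marker of granulocyte precursors, was on none. Their summed signal was 386 units on the wild-type array, 467 on that of Arp5 KO, 566 on that of Arp8 KO and 902 on the array labelled Arp8 overexpression. On the same arrays the 12 pre-B markers summed to 593998, 588731, 568128 and 582839 units. Much of the myeloid sum came from *CD68*, which had 162, 257, 210.0 and 572 units in the same order. Log2 differences from wild-type cells put *LYZ* at -0.24, 1.35 and 1.31, *CSF1R* at 0.01, 0.53 and 1.17 and *ITGAM* at -0.41, 0.94 and 0.50. *LYZ* and *ITGAM* were thus highest in Arp8 KO cells, and *CD14* was at 0.08, 0.02 and -0.14. Of 4 markers of plasmacytoid dendritic cells 3 were measured, with *CLEC4C*, which defines these cells, on no array above background. The summed signal of that list was 632, 395, 362 and 1426 units. Its member *IL3RA* was at -0.84, -0.98 and 1.17, lower on both KO arrays than on both others. The other measured genes of that list were above the wild-type level on both KO arrays, with *LILRA4* at 0.38, 0.37 and 0.87 and *NRP1* at 0.46, 0.33 and 0.12. T-cell markers summed to 133, 129, 126 and 134 units, with *CD3D* and *CD3G* not above background. Of 4 NK-cell markers only *NKG7* was measured. The part of these transcripts in the interferon-stimulated genes' values was not tested.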

How the data were processed

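The authors deposited the scanner output of 4 Agilent single-color arrays, read per the file headers with Agilent Feature Extraction 10.5.1.1. The values used are the deposited processed signal, an intensity on a linear scale from which the software had already subtracted background. In the value table the same intensity is multiplied by 1 factor per array, 0.847, 0.838, 0.825 and 0.807 for the wild-type, Arp5 KO, Arp8 KO and labelled overexpression arrays, with column medians of 127, 128, 123 and 119. The basis of the factor is not stated.

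From each intensity, log2 was taken relative to the array's 75th percentile over the 43376 non-control spots. Spots marked as outliers were dropped and those of a probe were averaged. Of 41000 probes, 26222 (64%) were named by accession through RefSeq's gene table of GRCh38.p14, used for names and neighbors only, since the arrays were annotated on another build, hg18. Probes well above background on both arrays entered a difference as the gene's median. Where a gene was measured only on the brighter array, the dimmer was set to the lowest signal of its probes well above background (7.76, 6.90, 9.44 and 8.87 units), which gives a bound. Spots well above background numbered 31188, 31420, 30394 and 30803, and none was saturated. The number of arrays limits the precision. Repeated spots gave a median technical SD of 0.06 between 50 and 500 units and 0.03 above, in the Arp5 KO comparison. No member probe had repeated spots.

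The members and lists were chosen with earlier results of these data known. All members are accounted for, those beyond 2-fold and *STAT2*, *IRF9*, *IRF7* and *ISG15* with every array's value. Of each pathway list, up to 4 genes with the largest difference were named, plus *IRF1*, *IFNAR1*, *IFNAR2*, *JAK1* and *TYK2*. *MX2*, *ISG20* and other members or genes given with signals, genes named for a bound and the markers singled out were chosen after their values were seen. Alternatives were other scalings, normexp, the value table, 1.5-fold, the brightest probe and other filters. Normexp, with an offset of 50 units, was run on the median signal in place of the mean signal. Quantile normalization followed it, so results given for normexp reflect both steps. Steps used Python 3.11.15, numpy 2.4.6, pandas 2.3.3, matplotlib 3.10.9, R 4.3.3 and limma 3.58.1, and were tested on simulated data.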

Additional observations from a re-analysis of the deposited data

How the results depend on the processing

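No paired analysis was possible because there is a single array per genotype. Over the alternatives the members' median log2 difference stayed below 0 for Arp5 KO (-0.25 to -0.20), for Arp8 KO (-0.26 to -0.10) and between the Arp8 arrays (-0.19 to -0.16). On the array labelled Arp8 overexpression it changed sign (-0.06 to 0.02). For Arp8 KO the median moved to -0.26 with the percentile over spots well above background and to -0.10 with normexp. At 1.5-fold, the members lower than wild type numbered 4 for Arp5 KO, 7 for Arp8 KO and 3 for the labelled overexpression array, against 4.07%, 5.72% and 5.56% of all genes. Those higher at 1.5-fold numbered 0, 2 and 2, against 4.44%, 5.69% and 5.83%. Between the Arp8 arrays 7 were lower at 1.5-fold (3.98% of genes), and 2 with no filter on dim probes (2.36%). With normexp 0 members were lower beyond 2-fold for Arp5 KO, 1 for Arp8 KO and 0 for the labelled overexpression array (0.43%, 0.941% and 0.856% of genes), where 0 were higher (0.586%). With signals well above background required on all 4 arrays, which leaves out *OASL* by construction, 0 were lower in Arp5 KO cells and 0 on the labelled overexpression array (0.948% and 1.47%). From the deposited value table, in Arp5 KO cells, 2 were lower (1.57%), and 0 were higher on the labelled overexpression array (1.67%). The latter was also 0 with quantile normalization (2.22%) and with the percentile over spots well above background (1.57%). Apart from that filter and the lower threshold, the cause was not tested.

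*MX1* stayed beyond 2-fold in Arp8 KO cells against wild type (-1.15 to -1.07) and between the Arp8 arrays (-1.16 to -1.09). *USP18* and *XAF1* did not stay beyond 2-fold under every alternative. *OASL* fell short only under normexp. Before its quantile step, the offset of 50 units keeps a signal of 44.7 units within 2-fold of any dimmer one by construction. The alternatives for the grouping of KO against other arrays were added after seeing the data. Members lower on both KO arrays numbered 8 to 10, and 3 to 4 with a gap of at least 0.5. In the main processing the shares of all genes were 15.3% and 0.486%, and those under the alternatives are not given. Without the array labelled Arp8 overexpression, 3 members (*MX1*, *MX2* and *ISG20*) and 2.05% of genes lay at least 0.5 below wild type on both KO arrays, values that share the wild-type array. Dim signals limit *OASL*, *IFI44L* and the interferon genes, and left *RSAD2* and *EPSTI1* without a value.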

Other observations

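Genes of interferon gamma and antigen presentation were examined beside the 38 genes. Of 21 listed, 17 had a value against wild-type cells, and 4 of them were below their wild-type level for Arp5 KO, 7 for Arp8 KO and 3 for the array labelled Arp8 overexpression, against 46.1%, 46.2% and 45.5% of all named genes. Their medians were 0.23, 0.06 and 0.30. Their median between the Arp8 arrays was -0.15, with 11 of 16 below 0, where that of the 38 genes was -0.18, with 22 of 34 below 0, and 50.3% of all named genes were below 0. The 3 comparisons with wild-type cells share that array. Beyond 2-fold, 1 gene was higher in Arp5 KO cells and 1 on the labelled overexpression array, *GBP2* in both, against 1.14% and 1.87% of all genes. *GBP2*, a guanylate-binding protein gene, gave 16.5 units on the wild-type array, 35.1 on the Arp5 KO array, 26.0 on the Arp8 KO array and 44.6 on the one labelled Arp8 overexpression, all under 50 units, with log2 differences of 1.11, 0.64 and 1.41. Its relative *GBP1* was lower in both KO lines, at -0.54 and -0.52, and at -0.00 on the labelled overexpression array. *IRF1*, a transcription factor that interferon gamma induces, was at 0.22, -0.41 and 0.05. *CIITA*, the master regulator of MHC class II genes, was at 0.36, -0.15 and 0.46.

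*HLA-B*, *HLA-E*, *B2M* and *NLRC5*, genes of MHC class I presentation chosen after their values were seen, were higher on all 3 arrays than in wild-type cells, at 0.51, 0.52 and 0.38, 0.37, 0.38 and 0.30, 0.27, 0.38 and 0.45 and 0.49, 0.34 and 0.41. Other genes of class I presentation, chosen in the same way, were not higher on all 3, with *TAP2* at 0.15, -0.01 and -0.13, *TAPBP* at -0.01, 0.03 and 0.31 and *PSMB10* at 0.31, -0.03 and 0.32. The third probe of *NLRC5* went the other way, at -0.09, -0.31 and -0.17. Class I genes resemble each other in sequence, and binding of one transcript to several of these probes cannot be told apart from a shared difference.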
